A study of Mus musculus with 10 samples.

Results

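The genes described are 10 genes of skeletal muscle, most of them used by fast fibres: *Myh4*, *Myh1*, *Acta1*, *Atp2a1*, *Actn3*, *Ckm*, *Tnnt3*, *Tnnc2*, *Mylpf* and *Pvalb*. They were chosen by name from a table of 47069 genes because an earlier look at these counts had shown them high in a single library, so their levels in that library are a description and carry no test. RNA-seq was performed on 10 libraries from intestinal organoids of C57BL/6 mice cultured for 50 days in Matrigel with Noggin, EGF and R-spondin 1. All mice carried *Lgr5-EGFP-CreERT2* and, on both alleles, floxed *Ppp2r1a*. In such mice tamoxifen activates the Cre recombinase in Lgr5+ crypt stem cells and thereby deletes part of the gene for the scaffold subunit of PP2A. There were 5 groups of 2 libraries: control (saline), DMBA (a carcinogen, labelled long), TAM short and TAM long (tamoxifen), and DMBA with tamoxifen (DMBA+TAM). The labels of TAM short and TAM long read dosage-sensitive TAM, followed by short or long. The DMBA+TAM label holds none of these words. Each library was grouped by its description. Its title does not name the treatment: control is titled NS, DMBA is NL, TAM short is DSS_S, TAM long is DSS_L and DMBA+TAM is Lgr5. What short and long stand for, and whether the 2 libraries of a group came from separate cultures or mice, is not given in the sources used here.

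The DMBA+TAM libraries held 1592366 and 1915270 counted reads, and the other 8 libraries 8828247 to 10923673. Both DMBA+TAM libraries also stood apart in composition: the summed normalized CPM (counts as a share of the TMM scaled library total) of 9 epithelial genes was 33.2 and 22.3 there and at least 13214 elsewhere, so the defining genes of intestinal epithelium were nearly absent from libraries labelled as intestinal organoid. The summed level of 10 fibroblast genes was 32436 and 33186 normalized CPM in them and at most 2194 elsewhere. The 2 DMBA+TAM libraries are therefore given one by one throughout.

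Skeletal muscle contracts through sarcomeres, in which myosin of the thick filament pulls on actin of the thin filament once calcium binds troponin. Fast and slow fibres build this machine from partner genes of the same families, and fast fibres of mice use the myosin heavy chains of type IIb and IIx, the calcium pump SERCA1 and the calcium buffer parvalbumin. These genes are markers of mature muscle fibres and are not known as products of the intestinal crypt.

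The genes lie on several chromosomes, so that they share no single locus. In the mouse genome build GRCm38, *Myh1* (chr11:67200052-67224575) and *Myh4* (chr11:67238029-67260446) are neighbours in a myosin cluster. *Ckm* (chr7:19411094-19421583), *Atp2a1* (chr7:126445858-126463108), *Mylpf* (chr7:127208890-127214298) and *Tnnt3* (chr7:142498836-142516009) are far apart on chromosome 7. *Acta1* is at chr8:123891767-123894736, *Actn3* at chr19:4861223-4877909, *Pvalb* at chr15:78191114-78206400 and *Tnnc2* at chr2:164777161-164779967.

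Sequences before the start sites are shown for *Myh4*, *Myh1*, *Acta1* and *Pvalb*, because these are the genes whose windows hold the MEF2 motif or the CArG box, letters known to be bound by regulators of muscle genes. RefSeq windows (GRCm38.p6) of the 250 bases before the start site matched 8 of the 10 genes, in 9 windows because *Pvalb* has 2 start sites. Sequences are written 5′ to 3′ on the strand of the gene, and capitals mark matches on either strand to CANNTG (E box), TATAAA, the MEF2 motif or the CArG box. CAGCTG is a case of CANNTG, and a TATAAA match can lie inside a MEF2 match. *Myh1* is shown only up to the first annotated exon of the gene.

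Myh4, chr11:67237562-67237811, plus strand: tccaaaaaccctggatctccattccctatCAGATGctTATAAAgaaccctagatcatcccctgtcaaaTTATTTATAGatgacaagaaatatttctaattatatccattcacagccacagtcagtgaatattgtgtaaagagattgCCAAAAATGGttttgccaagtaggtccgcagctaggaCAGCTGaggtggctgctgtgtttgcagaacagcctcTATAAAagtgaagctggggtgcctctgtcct
Myh1, chr11:67199852-67200051, plus strand: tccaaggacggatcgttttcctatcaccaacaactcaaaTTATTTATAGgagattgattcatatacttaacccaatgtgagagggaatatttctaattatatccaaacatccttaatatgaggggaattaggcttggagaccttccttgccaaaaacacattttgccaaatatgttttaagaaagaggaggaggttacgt
Acta1, chr8:123894776-123895025, minus strand: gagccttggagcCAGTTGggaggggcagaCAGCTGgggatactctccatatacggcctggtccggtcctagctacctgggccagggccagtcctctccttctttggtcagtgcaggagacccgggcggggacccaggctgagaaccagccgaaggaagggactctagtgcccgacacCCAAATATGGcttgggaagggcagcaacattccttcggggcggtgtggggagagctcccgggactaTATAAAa
Pvalb, chr15:78206401-78206650, minus strand: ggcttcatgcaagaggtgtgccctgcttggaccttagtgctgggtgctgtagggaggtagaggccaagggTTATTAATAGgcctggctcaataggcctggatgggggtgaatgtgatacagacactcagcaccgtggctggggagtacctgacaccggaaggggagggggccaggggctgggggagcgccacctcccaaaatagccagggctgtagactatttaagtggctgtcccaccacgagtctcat

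The *Myh4* and *Myh1* windows hold the same MEF2 match, TTATTTATAG, 182 and 211 bases before the start site, and *Pvalb* holds TTATTAATAG 180 bases before. The MEF2 motif occurred in 3 of the 9 windows and in 2.92% of 32851 RefSeq windows of this length. The CArG box, the letters bound by serum response factor, occurred in 2 of the 9 (*Acta1* and *Myh4*) and in 1.47% of all windows. CAGCTG, an E box form bound by MyoD family factors, occurred in 5 of the 9 (*Myh4*, *Acta1*, *Ckm*, *Atp2a1* and *Mylpf*) and in 13.0% of all. TATAAA was found in 3 of the 9 and 12.4% of all, and CANNTG in 7 of the 9 and 66.2% of all. These are matches of letters only, with no measurement of binding.

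One library, DMBA+TAM replicate 2, held nearly every read of these genes. It had 21000 counts over the 10 genes, 1.10% of its total (95% Clopper-Pearson interval 1.08 to 1.11), against 16 counts in DMBA+TAM replicate 1. The summed level was 9201 normalized CPM in replicate 2 and 8.43 in replicate 1, a ratio of 1091 (95% counting interval 672 to 1909). The other 8 libraries had 7.91 to 21.8 normalized CPM, so replicate 1 lay within their range and replicate 2 far above it. Intervals here cover counting error only, and no interval stands for the spread between cultures, since the 2 libraries share a single label.

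**Figure D1:**
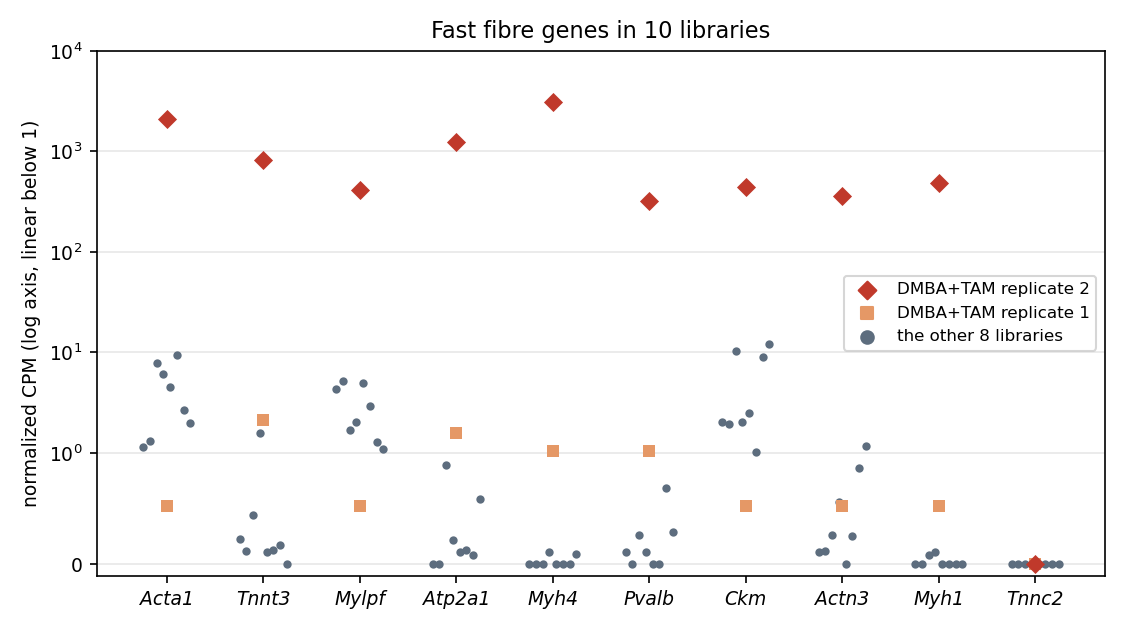
Normalized CPM (log axis, linear below 1) of the 10 genes in each library, ordered by FPKM in DMBA+TAM replicate 2. Diamonds are DMBA+TAM replicate 2, squares replicate 1, and points the other 8 libraries; 9 genes sit at 319 or more in replicate 2 and at or below 12.2 in every other library, and *Tnnc2* is at 0 throughout.

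Among the motor proteins of the thick filament, *Myh4* (myosin heavy chain IIb, the fastest isoform) had 7004 counts in DMBA+TAM replicate 2 and 2 in replicate 1. Of the other 8 libraries, 6 had 0 counts of *Myh4* and 2 had 1 count (DMBA replicate 2 and TAM long replicate 2). *Myh1* (myosin heavy chain IIx) had 1101 counts in replicate 2, 1 in replicate 1, 1 in each DMBA library and 0 in the other 6. Groups outside DMBA+TAM therefore gave no level of either gene beyond single reads. *Mylpf*, the regulatory light chain of fast myosin, had 930 counts in replicate 2 and 1 in replicate 1. It was also counted in every other library, with 38 and 43 in control libraries, 19 and 18 with DMBA, 44 and 23 in TAM short and 15 and 11 in TAM long.

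For the thin filament and the Z line, *Acta1* (skeletal alpha actin, used by both fibre kinds) had 4740 counts in DMBA+TAM replicate 2 and 1 in replicate 1. Elsewhere *Acta1* had 10 and 11 counts in the control libraries, 88 and 54 with DMBA, 40 and 74 in TAM short and 31 and 20 in TAM long. The *Acta1* level was 2077 normalized CPM in replicate 2, the highest of all 10 libraries. The 0.527 of replicate 1 rests on 1 count, and its exact Poisson interval (0.013 to 2.94) holds the levels of the control and TAM long libraries. *Tnnt3* (fast troponin T, which ties troponin to tropomyosin) had 1881 counts in replicate 2, 4 in replicate 1, and 0 to 14 in the other 8 libraries, with a median of 1.5. *Actn3* (alpha actinin 3, the Z line crosslinker of fast fibres) had 812 counts in replicate 2, 1 in replicate 1 and 0 to 12 elsewhere, the 2 highest of these being the TAM long libraries with 10 and 12.

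For calcium handling and energy, *Atp2a1* (SERCA1, which returns calcium to the sarcoplasmic reticulum) had 2796 counts in DMBA+TAM replicate 2 and 3 in replicate 1. The highest of the other 8 libraries was DMBA replicate 1, with 10 counts of *Atp2a1*. *Pvalb* (parvalbumin, which buffers calcium in fast fibres) had 727 counts in replicate 2, 2 in replicate 1 and 0 to 8 elsewhere. *Ckm* (muscle creatine kinase, which regenerates ATP in both fibre kinds) had 1009 counts in replicate 2 and 1 in replicate 1. The control libraries had 18 and 16 counts of *Ckm*, those of DMBA 116 and 18, with 22 and 8 in TAM short and 105 and 124 in TAM long, so the 2 DMBA libraries differed more from each other than the TAM long libraries did.

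The ratio of normalized CPM in replicate 2 to replicate 1 was 2911 for *Myh4* (95% counting interval 806 to 24042), 3940 for *Acta1* (707 to 155661), 775 for *Atp2a1* (265 to 3759) and 391 for *Tnnt3* (152 to 1436). The intervals are wide because replicate 1 had 1 to 4 counts of each of the 9 genes with reads, and the lowest bound among them was 83.3, for *Pvalb*. Against the highest of the other 8 libraries, the ratio was 36.3 for *Ckm* (30.1 to 44.1), 78.8 for *Mylpf* (58.0 to 109.6), 223 for *Acta1* (177 to 284) and 302 for *Actn3* (172 to 587). For *Myh4* and *Myh1*, where the highest of these 8 libraries had 1 count, the interval of the ratio began at 4930 and 774. *Ckm* and *Mylpf* therefore stood apart least from the other 8 libraries, with intervals below those of the other genes with reads.

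*Tnnc2* (fast troponin C, the calcium sensor of the thin filament) had 0 counts in all 10 libraries. Of the 800 exon bases of *Tnnc2* in GENCODE M21, 592 (74.0%) lie in exons of *Ube2c* on the opposite strand. *Ube2c*, a ubiquitin conjugating enzyme of dividing cells, had 17 counts in DMBA+TAM replicate 1, 57 in replicate 2 and 235 to 559 elsewhere. The library kit does not mark strand and the strand setting of the counting is not given in the sources used here, so reads of the shared part cannot be told apart and the 0 is not a measured absence. The share of exon bases that overlap a gene on the other strand was 21.9% for *Atp2a1* (with *Rabep2*), 15.5% for *Ckm* (with A930016O22Rik), 8.11% for *Myh1* (with *Myhas*) and 0% for the other 6 genes. Of all stretches of 50 bases in the transcripts, 30.5% of *Myh1* and 18.9% of *Myh4* also occur in another gene, mostly in myosin heavy chain genes, so the split of reads between these genes is uncertain.

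Levels were compared between genes per length, as FPKM (fragments scaled by gene length and library total) in the authors' table. In DMBA+TAM replicate 2, *Acta1* was highest with 1727 FPKM (counting interval 1678 to 1777). *Tnnt3* (1131) and *Mylpf* (1119) followed with overlapping intervals, then *Atp2a1* (702) and *Myh4* (613), whose intervals did not overlap. *Pvalb* (393) and *Ckm* (372) again had overlapping intervals, followed by *Actn3* (219.6), *Myh1* (123) and *Tnnc2* (0). *Myh4* thus led in reads but was the fifth gene per length. The length that the deposited FPKM implies is shorter than the listed gene length for several genes, for example 434 against 766 bases for *Mylpf* and 2079 against 3477 for *Atp2a1*. With the listed length, an alternative chosen after seeing the data, *Myh4* moved to rank 4 and *Atp2a1* to rank 5, and the other 8 ranks were as before.

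Each kind of muscle fibre uses its own myosin heavy chain gene, so these genes were compared first. Of the summed FPKM of 9 muscle myosin heavy chain genes in DMBA+TAM replicate 2, *Myh4* made 77.3%, *Myh1* 15.5%, *Myh2* (type IIa, the least fast of the adult fast isoforms) 5.87% and *Myh7* (slow type I) 1.07%. The heart isoform *Myh6* had 4 counts and 0.169%. *Myh3* and *Myh8*, the embryonic and perinatal isoforms, had 0 and 1 counts, and *Myh13* of eye muscles had 0. The order by reads was the same for the leading 4 genes, with 7004, 1101, 404 and 67 counts. Replicate 1 had 2 counts of *Myh4*, 1 of *Myh1* and 0 of *Myh2* and *Myh7*, too few for a share.

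**Figure D2:**
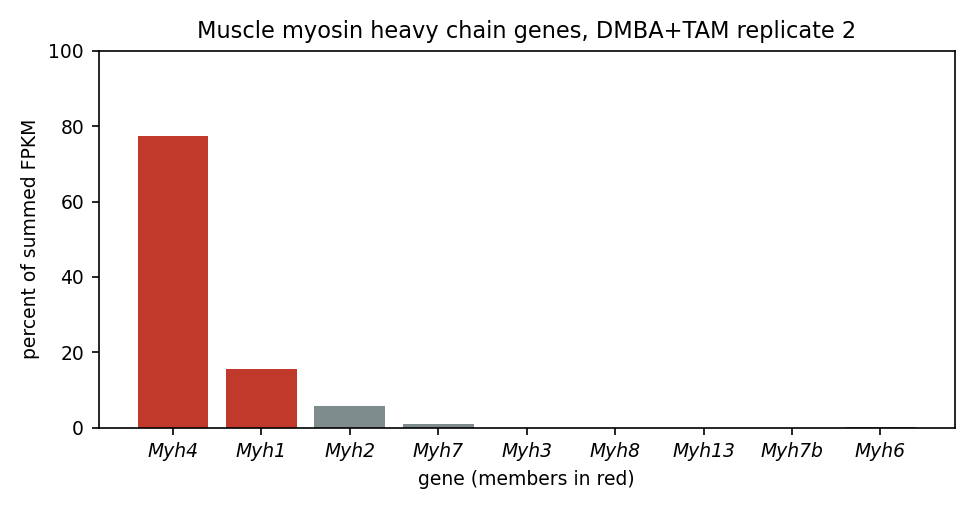
Share of the summed FPKM (percent) that each of 9 muscle myosin heavy chain genes takes in DMBA+TAM replicate 2. *Myh4* takes 77.3%, *Myh1* 15.5%, *Myh2* 5.87% and *Myh7* 1.07%.

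Fast fibre genes were next compared with their slow partners, gene by gene. In DMBA+TAM replicate 2, the fast gene had the higher FPKM in 12 of 12 pairs in which both genes had reads in some library. The pair of *Tnnc2* and *Tnnc1* could not be measured for the reason above, and *Tnnc1* had 21 counts. The fast genes *Myh4*, *Myh1*, *Mylpf*, *Tnnt3*, *Atp2a1* and *Actn3* were among those chosen because they were high in DMBA+TAM replicate 2. The other fast genes came from lists written with that pattern known. This choice favours the fast gene, so the count of pairs is a description and carries no test. The pairs of *Myh4*, *Myh1* and *Myh2* also share the slow gene *Myh7* and are not independent. The fast share of the pair per length was 98.6% for *Myh4* against *Myh7* (95% interval 98.3 to 98.9), 93.6% for *Myh1* against *Myh7*, and 84.6% for *Myh2* against *Myh7*. It was 98.3% for *Mylpf* against *Myl2*, 99.2% for *Myl1* against *Myl3*, 98.0% for *Tnnt3* against *Tnnt1* and 98.9% for *Tnni2* against *Tnni1*.

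Among the pairs outside the myosin and troponin families, the share ranged more widely. *Actn3* made 81.7% of its pair with *Actn2* (interval 79.4 to 83.8), and *Actn2* is also used by fast fibres. *Mybpc2*, the fast myosin binding protein C, made 63.1% of its pair with *Mybpc1* (interval 60.1 to 66.0), the lowest share of the 12, and 76.5% with the listed gene length. *Casq1* against *Casq2* gave 99.2% (interval 97.2 to 99.9, from 200 and 2 counts) and *Myoz1* against *Myoz2* 91.9%. *Atp2a1* made 86.1% of its pair with *Atp2a2* (interval 85.0 to 87.1) in replicate 2 and 0.849% (interval 0.176 to 2.45) in replicate 1. *Atp2a2*, the pump of slow and heart muscle that other cell types also use, had 521 and 673 counts in the 2 libraries, while *Atp2a1* had 3 and 2796.

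**Figure D3:**
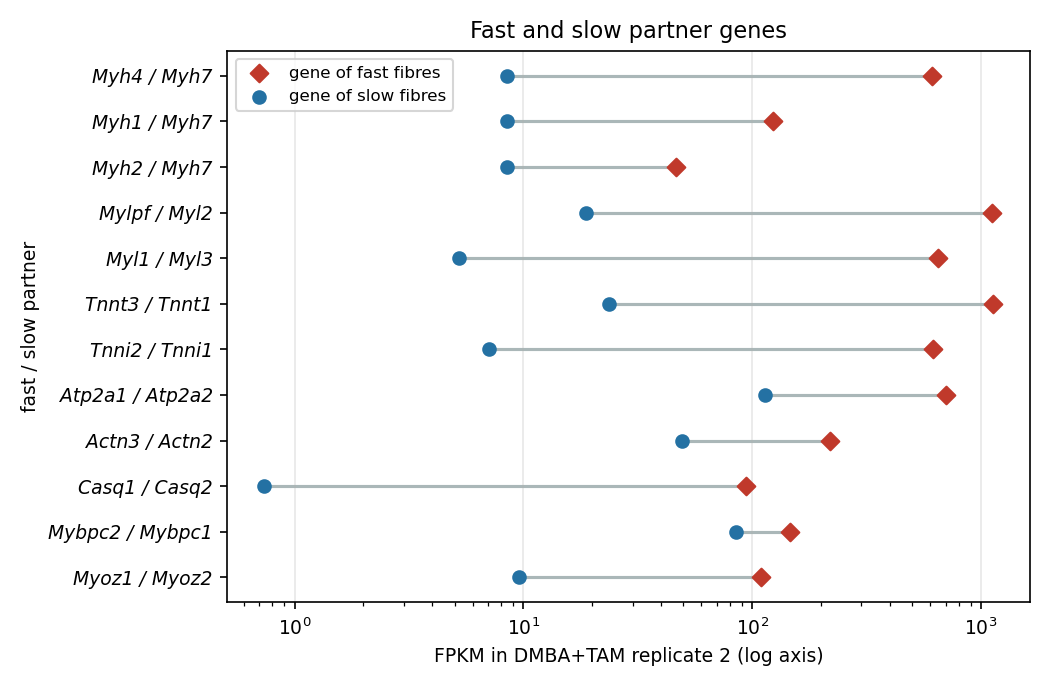
FPKM (log axis) in DMBA+TAM replicate 2 of the fast partner (diamond) and the slow partner (circle) in 12 gene pairs. The fast gene is to the right in every pair, closest for *Mybpc2* and *Mybpc1*, and the point of *Casq2* rests on 2 counts.

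Other genes of skeletal muscle were read from lists written with the pattern of the 10 genes already known. The 103 listed genes outside the 10 summed to 25607 counts (1.34%) in DMBA+TAM replicate 2 and 2968 (0.186%) in replicate 1. Their summed level was 11219 normalized CPM in replicate 2 and 1564 in replicate 1, with 2390 to 5860 in the other 8 libraries, so replicate 2 lay above their range and replicate 1 below it. In these 8 libraries, sarcomere genes of both fibre kinds summed to 845 to 4631 normalized CPM and slow fibre genes to 608 to 1051. The other fast fibre genes summed to only 4.41 to 10.4 there. Together with the 10 genes, muscle lists took 46607 counts, or 2.43%, of replicate 2. Replicate 2 was the highest of all 10 libraries for 68 of the 103 genes, against 15.2% of the 15749 genes with at least 50 counts in all libraries together.

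Of 9 other fast fibre genes, 8 were highest in DMBA+TAM replicate 2 and *Myh13* had no count. *Mybpc2* had 1007 counts there and 0 in replicate 1, *Tnni2* (fast troponin I) 856 and 2, and *Myl1* (fast essential light chain) 853 and 6. The giant proteins of the sarcomere showed the same pattern, with 3623 and 3 counts of *Ttn* (titin) and 1536 and 3 of *Neb* (nebulin). Among calcium release genes, *Ryr1*, the release channel of skeletal muscle, had 1139 and 2 counts, and *Srl* (sarcalumenin) 342 and 3. Among energy genes, *Pygm* (muscle glycogen phosphorylase) had 987 and 4 counts, *Eno3* (muscle enolase) 708 and 12, and *Pfkm* (muscle phosphofructokinase) 513 and 40.

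Among genes that are also used outside skeletal muscle, *Tpm1* (alpha tropomyosin) had 1655 counts in replicate 2 and 668 in replicate 1, and *Tpm2* 1355 and 197. *Bin1*, a membrane shaping protein used widely, had 329 and 146. The voltage gated sodium channel of muscle, *Scn4a*, had 123 and 0 counts, while the acetylcholine receptor subunits *Chrnb1* and *Chrna1* had 27 and 13 and 26 and 0.

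Genes of muscle formation did not all go one way between the 2 libraries. In replicate 2, *Myod1* and *Myog*, the factors that commit and differentiate myoblasts, had 1 count each, *Myf5* had 0, and *Myf6*, the member of this family kept on in adult fibres, had 30. *Pax7* and *Pax3* of satellite cells, the stem cells of muscle, had 0 counts in both DMBA+TAM libraries, and *Cdh15* had 0 and 1. *Itga7*, which is not specific to satellite cells, had 110 counts in replicate 1 and 100 in replicate 2. The 4 developing muscle genes found in the table (*Actc1*, *Myl4*, *Myh8* and *Myh3*) summed to 1 and 4 counts. Of the wider transcription factors, *Mef2a* had 356 and 390 counts, *Mef2c* 126 and 224, and *Mef2d* 141 and 165, so these differed far less between the 2 libraries than the fibre genes did. *Smyd1*, a methyltransferase needed for sarcomere assembly, went with the fibre genes, with 0 counts in replicate 1, 63 in replicate 2 and 0 to 10 elsewhere.

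The question of how these genes compare between DMBA+TAM and control has a different answer with and without replicate 2. Of 103 listed genes outside the 10, 61 passed the filter on low counts. In edgeR's quasi-likelihood test, 41 of these 61 were higher in DMBA+TAM and 6 lower (adjusted p under 0.05), where 29.0% of all 16179 genes tested were higher and 35.3% lower. Without replicate 2, 16 were higher and 11 lower (all genes: 25.0% and 31.2%). Without replicate 1, 47 were higher and 5 lower (all genes: 25.8% and 31.2%). The median log2 fold change of the 61 was 3.00 with both libraries, -0.45 without replicate 2 and 3.50 without replicate 1. The median of all genes was -0.17. A group of 1 library has no spread of its own, and the lone library is then assumed to vary like the other groups. Many of these genes passed the filter through replicate 2, so the counts describe the library and are no support for a change in the group.

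By list, with both libraries, 5 of 5 tested other fast fibre genes (9 listed) were higher, where 29.0% of all genes tested were higher and 35.3% lower. Many of the tested genes passed the filter through replicate 2, so these counts describe that library. The median log2 fold change of the tested other fast fibre genes was 8.32 with both libraries and 0.83 without replicate 2. Of 14 tested sarcomere genes, 7 were higher and 0 lower with both libraries, and their median was 2.89, and -0.58 without replicate 2. The fit without replicate 2 rests on replicate 1, where many of these genes had few reads. Replicate 1 had 6 counts of *Myl1* against 5 and 5 in the control libraries, and 3 of *Ttn* against 2 and 2. With both libraries, 9 of 10 calcium release genes were higher (median 4.10, and 0.47 without replicate 2). Energy genes had 9 higher and 2 lower of 11 (median 3.32, and -0.64 without replicate 2). Endplate and membrane genes had 4 of 6 higher (median 2.42, and 0.038 without replicate 2). Slow fibre genes had 1 higher and 3 lower of 7 with both libraries (median -0.45, and -3.31 without replicate 2). Where all 13 slow fibre genes were tested, 7 were higher and 3 lower with DESeq2 (all genes: 25.3% and 27.5%), and 8 higher and 3 lower by edgeR with no filter (all genes: 17.7% and 22.8%). *Atp2a2* (log2 fold change -0.45, adjusted p = 0.0163 by edgeR) and *Tpm3*, a slow tropomyosin gene also used outside muscle (-1.33, adjusted p = 1.02e-05), were among the lower. For muscle transcription factors, 5 of 5 tested genes (12 listed) were higher with both libraries. Their median log2 fold change was 3.00 with both libraries, 2.67 without replicate 2 and 3.25 without replicate 1.

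**Figure D4:**
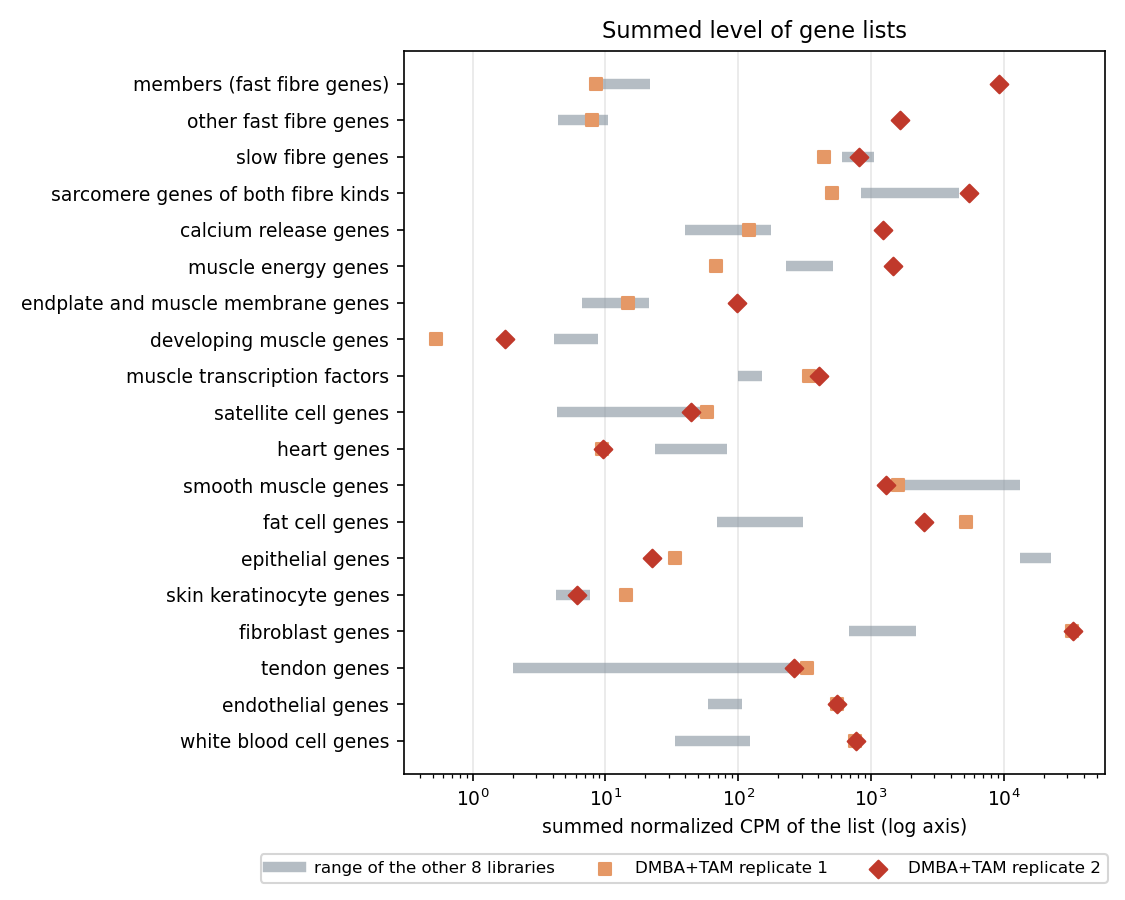
Summed normalized CPM (log axis) of gene lists in DMBA+TAM replicate 1 (squares) and replicate 2 (diamonds), with bars for the range of the other 8 libraries. The 10 genes are at 8.43 and 9201, while fibroblast, endothelial and white blood cell lists have nearly the same level in both DMBA+TAM libraries.

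Other cell types were read in the same 2 libraries, since skeletal muscle lies beside such cells in the body. Fibroblast genes, led by the collagens *Col3a1*, *Col1a1* and *Col1a2*, had 61541 counts in replicate 1 and 75744 in replicate 2, a ratio of normalized CPM of 1.02 (interval 1.01 to 1.03). The ratio was 0.993 (0.914 to 1.08) for endothelial genes (*Pecam1*, *Cdh5*, *Kdr*) and 1.01 (0.945 to 1.09) for white blood cell genes (*Adgre1*, *Ptprc*, *Cd68*). The fibroblast, endothelial and white blood cell lists thus differed little between the 2 libraries. Fat cell genes (*Fabp4*, *Cfd*, *Adipoq*) were lower in replicate 2, with 5720 against 9908 counts and a ratio of 0.480 (0.464 to 0.496), and both libraries were above the highest of the other 8. Smooth muscle genes (*Acta2*, *Tagln*, *Mylk*) had a ratio of 0.819 (0.778 to 0.862), tendon genes (*Fmod*, *Thbs4*, *Tnmd*) 0.793 (0.708 to 0.888) and skin keratinocyte genes (*Trp63*, *Krt10*, *Krt14*) 0.431 (0.209 to 0.851) from 27 and 14 counts.

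Heart genes (*Tnnt2*, *Ryr2*, *Tnni3*) summed to 18 and 22 counts in the 2 libraries, with 4 of 10 genes at 0 in replicate 2. Epithelial genes (*Krt8*, *Krt19*, *Cdh1*) had a ratio of 0.673 (0.456 to 0.989) from 63 and 51 counts. In bulk RNA, fewer cells of a type and less RNA per cell cannot be told apart, and the source of the muscle reads in replicate 2 was not tested.

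The 10 genes were then read in 3 contrasts with control (DMBA, each TAM set), which share their control libraries. The titles of DMBA (NL) and TAM long (DSS_L) hold an L, and those of control (NS) and TAM short (DSS_S) end in S. In the DMBA and TAM long contrasts, treatment therefore cannot be told apart from whatever S and L stand for. Only *Acta1*, *Ckm* and *Mylpf* passed the filter on low counts over the 8 libraries outside DMBA+TAM. With all 10 libraries, 8 of the 10 genes passed it, the other 5 only through DMBA+TAM. These 5 had at most 14 counts in any of the 8 libraries, so a lack of calls for them is not read as a lack of change. None of the 24 tests of the 8 genes that passed had an adjusted p under 0.05 in edgeR's quasi-likelihood test or an unadjusted p under 0.05. Of all genes, 47.8% were called for DMBA, 46.0% for TAM long and 14.3% for TAM short. DESeq2 made 2 calls in 27 tests, both for *Myh4*, whose levels there rest on single reads (all genes in DESeq2: 38.6% for DMBA, 35.9% for TAM long, 14.4% for TAM short). The absence of edgeR calls depended on the filter and on having both DMBA+TAM libraries in the fit. With no filter edgeR made 12 calls in 7 of the genes (all genes: 30.0% for DMBA, 28.9% for TAM long, 12.5% for TAM short). Without DMBA+TAM replicate 1 it made 9, and without replicate 2 it made 7 (all genes in both: 48.8%, 47.5% and 14.8%). The 5 calls of *Acta1*, *Ckm* and *Mylpf* described next were among the calls of each of these fits, and the others were of *Acta1* and *Ckm* once more or of genes with at most 14 counts in any of the 8 libraries. The main fit takes the spread of each gene over all 5 groups, DMBA+TAM included. For the log2 fold change of *Acta1* in DMBA, the standard error was 2.21 in that fit and 0.43 with the 8 libraries alone. It was worked back from the test, as the fold change over the square root of the F statistic. It was 0.25 with all 10 libraries and no filter. Such values are no direct measure of the spread between libraries, and what set them was not tested.

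With the 8 libraries alone, a fit added after seeing the data, 51.4% of all genes passed in edgeR for DMBA, 50.1% for TAM long and 15.9% for TAM short. In this fit *Acta1* was higher than control in DMBA (7.85 and 6.03 against 1.13 and 1.32 normalized CPM, log2 fold change 2.49, adjusted p = 0.00182 by edgeR). It was also higher in TAM short (4.52 and 9.33 normalized CPM, log2 fold change 2.48, adjusted p = 0.00731 by edgeR). In TAM long, *Acta1* had 2.67 and 1.96 normalized CPM, above both control libraries, and did not pass (log2 fold change 0.90, adjusted p = 0.14 by edgeR). DESeq2 on the same 8 libraries gave the same calls for *Acta1*.

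*Ckm* was higher in TAM long, with 9.04 and 12.2 against 2.03 and 1.93 normalized CPM in control (log2 fold change 2.39, adjusted p = 0.0197 by edgeR with the 8 libraries). In DMBA the 2 libraries were unlike, with 10.3 and 2.01 normalized CPM, and *Ckm* did not pass in edgeR (log2 fold change 1.65, adjusted p = 0.0791) but did in DESeq2 (adjusted p = 0.0332). Without DMBA replicate 1, the log2 fold change of *Ckm* in the fit of all remaining libraries was 0.01, so that library carried the difference. In TAM short, *Ckm* had 2.48 and 1.01 normalized CPM, on both sides of control.

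*Mylpf* moved the other way. It had 4.29 and 5.17 normalized CPM in control and was lower in TAM long, with 1.29 and 1.08 (log2 fold change -2.00, adjusted p = 0.00282 by edgeR with the 8 libraries). It was lower in DMBA too, with 1.69 and 2.01 (log2 fold change -1.36, adjusted p = 0.0135 by edgeR), although DESeq2 gave an adjusted p of 0.0514 there. In TAM short it had 4.97 and 2.90 normalized CPM and did not pass (log2 fold change -0.26, adjusted p = 0.659 by edgeR). The 3 genes therefore did not share a direction in the groups outside DMBA+TAM. Smooth muscle genes summed to 7461 to 13321 normalized CPM in DMBA and TAM long (titles with L) and to 1634 to 3149 in control and TAM short (titles with S). They were thus high in the groups of 4 of the 5 edgeR calls above (*Acta1* in DMBA, *Ckm* in TAM long and *Mylpf* in both), but not in TAM short, where *Acta1* was higher, and their part in these differences was not tested.

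**Figure D5:**
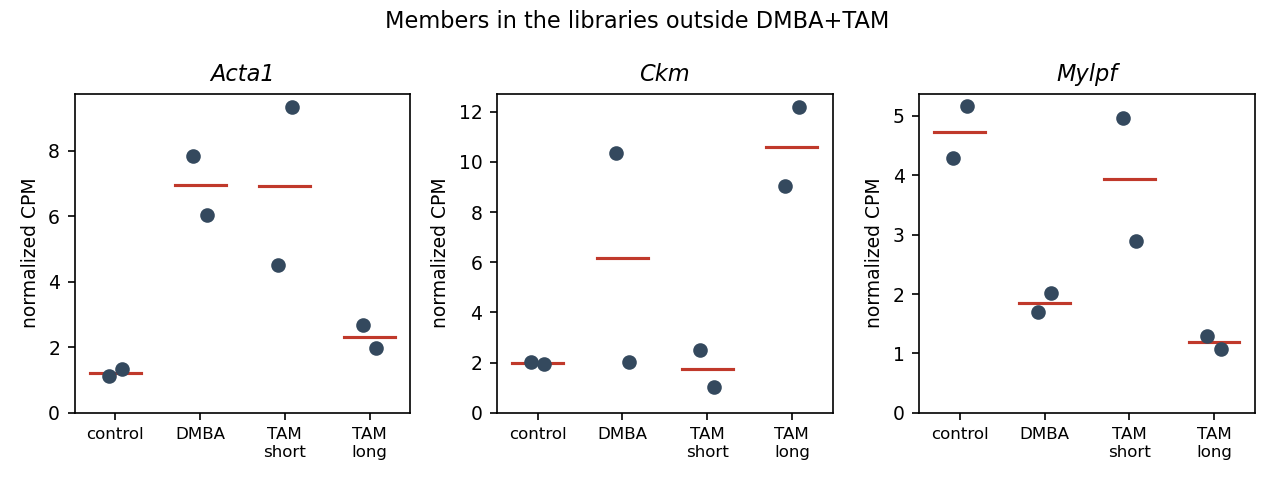
Normalized CPM of *Acta1*, *Ckm* and *Mylpf* in the 8 libraries outside DMBA+TAM, with a point for each library and a line for the mean of 2. *Acta1* is higher in DMBA and TAM short, *Ckm* in TAM long and in 1 of 2 DMBA libraries, and *Mylpf* is lower in DMBA and TAM long.

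To see which further genes follow the same pattern, 15651 genes with at least 50 counts outside the muscle lists were ranked by Pearson's r with the mean of the 10 genes over the 10 libraries, on log2(normalized CPM + 0.5). The 15 leading genes included *Klhl31*, *Hfe2*, *Art1*, *Fbxo40*, *Ppp1r3a*, *Kcna7*, *Synpo2l*, *Ankrd23*, *Mypn*, *Kcnc4*, 3425401B19Rik, *Ucp3*, *Txlnb* and *Scn4b*, with r from 0.998 to 0.957. *Klhl31*, a kelch protein of muscle, had 99 counts in DMBA+TAM replicate 2, 0 in replicate 1 and 0 or 1 elsewhere. *Hfe2* (hemojuvelin, made by muscle and liver) had 87 counts in replicate 2 and 0 in the other 9 libraries. *Mypn* (myopalladin of the Z line) had 69 and 0, and *Ucp3* (an uncoupling protein of muscle mitochondria) 39 and 2. The largest of the 15 was *Ankrd23*, with 582 and 6 counts. This likeness rests on a single library: without replicate 2, r over the 9 libraries ranged from -0.59 (*Ppp1r3a*) to 0.83 (*Kcnc4*), and *Hfe2* had no value.

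How far a single library can stand apart was read across all genes. Of 15749 genes with at least 50 counts in all, 69 (0.438%) had more than 10 times the normalized CPM in DMBA+TAM replicate 2 of that in each of the other 9 libraries, with a floor of 3 counts. They held 40028 counts, 2.09% of the library, and 44 of them were in the skeletal muscle lists, 9 of these among the 10 genes. By the same rule, 27 genes stood apart in DMBA replicate 2, 1 in DMBA+TAM replicate 1 and 0 in each of the other 7 libraries, and none of these 28 genes was in a muscle list. Of the 69, 25 were outside the lists. The largest of these was *Cmya5* (652 counts in replicate 2 and 11 in replicate 1), a protein of the sarcomere named here after its values were seen.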

How the data were processed

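RNA was extracted from organoids and poly(A) RNA was sequenced as NEBNext Ultra libraries. The authors mapped reads with TopHat v2.0.12 and counted reads per gene with HTSeq v0.6.1. The table they deposited holds raw counts per gene, used in every test, and FPKM, used only to compare genes within a library. The authors computed FPKM from counts and gene length, and the length implied by a value can differ from the length column (other). In all, 17 columns of group means or of the authors' comparisons were not used, and 5 of 47074 lines were parts of split lines. The 10 genes and all gene lists were chosen with earlier results of these data known.

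The main test was the quasi-likelihood test of edgeR 4.0.16 (R 4.3.3) after filterByExpr and TMM, with all 10 libraries in 5 groups and Benjamini-Hochberg adjustment over 16179 genes (threshold 0.05). P-values measure only the spread between libraries, which may be technical. Normalized CPM uses TMM totals. Intervals are exact at 95% (Poisson or Clopper-Pearson) and cover counting error only, and at these depths 3 counts stand for 1.88 and 1.57 CPM (library totals) in DMBA+TAM and 0.275 to 0.340 elsewhere. Alternatives were DESeq2 1.42.0, library totals, no filter, the replicate number as a block and leaving out each library. Named genes were the 10 genes, fast and slow partners, the 3 genes of every other list with most counts in DMBA+TAM, and the 15 most alike (at least 50 counts); genes named for a count in the text are exceptions, and some items under this rule are not reported here. Tested on simulated data for TAM long against control (200 genes changed 4-fold), edgeR recovered 92.5% with 4.15% false calls among 15434 genes, and DESeq2 93.0% with 10.6% among 16179. Only TAM long was changed, and only in genes above a minimum mean count. These rates therefore do not cover genes with few counts or a fit with unlike DMBA+TAM libraries. Gene models were from GENCODE M21 (GRCm38) and promoter windows from RefSeq (GRCm38.p6). Python 3.11.15 was used for tables.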

Additional observations from a re-analysis of the deposited data

How the results depend on the processing

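With both DMBA+TAM libraries, 41 listed muscle genes outside the 10 were higher than in control; leaving out each library in turn gave 16 to 47, the lowest without DMBA+TAM replicate 2, and no filter on low counts gave 73 of 101 tested (all genes: 17.7% higher). For other fast fibre genes the count of 5 became 8 of 8 with no filter and 1 to 5 when a library was left out, again lowest without DMBA+TAM replicate 2. For slow fibre genes the count of 1 of 7 became 7 of 13 with DESeq2 (all genes: 25.3% higher), 8 of 13 with no filter and 0 to 3 when a library was left out. The count of genes called in TAM short (2317) was 748 to 3156 when a library was left out. The summed level of the 10 genes in DMBA+TAM replicate 2 was 10965 CPM with library totals alone. When a library was left out, the log2 fold change in TAM short ranged from -0.96 to 0.32 for *Ckm* and from -0.70 to 0.071 for *Mylpf*, positive without TAM short replicate 2 and never past the threshold. Beyond fewer libraries or more genes tested, the cause was not tested. Of the other alternatives, 95 stayed within 1.5 times, for counts and for the ratio of the 10 genes between the DMBA+TAM libraries.

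Replicate numbers name libraries only: the deviations of replicate 1 correlated between groups with r from -0.035 to 0.208. With the replicate number as a block, DMBA+TAM had 10219 genes called, DMBA 7632, TAM long 7348 and TAM short 2322. With library totals alone, 6254 genes were higher and 3755 lower in DMBA+TAM, against 4687 and 5709 with TMM, and the median log2 fold change of all genes moved from -0.17 to 0.31. Depth limits DMBA+TAM replicate 1, in which 9 of the 10 genes rest on 1 to 4 counts. The setting with listed gene length, and the fit of the 8 libraries, were chosen after seeing the data.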
